A study of Homo sapiens with 14 samples.

Results

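The kinesin motor genes were followed in Hep3BTAp73β cells with and without induction of TAp73β. They were all genes whose symbol in the annotation of the array is KIF with a number and an optional letter, or KIFC1, KIFC2 or KIFC3. This gave 41 of the 19775 genes measured, with 85 of the 41091 probe sets that name 1 gene. Each gene was read from the brightest of its probe sets, by the average of the 14 arrays. That average includes the Dox+ arrays, so it favours a probe set that rises in them. By known function, 13 were grouped as mitotic kinesins, 15 as transport kinesins and 13 as other kinesins. KIF4B was not analysed here.

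Kinesins are motor proteins that burn ATP to move along microtubules or to take microtubule ends apart. One branch of the family builds the mitotic spindle, moves chromosomes and splits the daughter cells, and most of its members are made in the later part of the cell cycle. Another branch hauls vesicles, mitochondria, endosomes and ciliary material in cells that need not divide at all.

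Hep3B is a human hepatocellular carcinoma line. Hep3BTAp73β cells carry a doxycycline-inducible construct for TAp73β, the beta isoform of transcriptionally active p73. Dox+ cells were kept in doxycycline at 1 μg/mL until RNA was taken at 12, 24 or 48 h, and Dox− cells carried the same construct without doxycycline. RNA from 2 Dox+ and 2 Dox− cultures at 12 h, the same numbers at 24 h, and 3 of each at 48 h was hybridised to Affymetrix U133 Plus 2.0 arrays, 1 array per culture. The labels give DMEM with 10% FBS as the medium, while the methods name RPMI for Hep3B cells. Doxycycline on cells without the construct was not analysed here, so the drug and TAp73β cannot be told apart. The labels call the samples biological replicates, and p-values measure the spread between these cultures.

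TP73 read 7.96 and 7.89 (log2) on the Dox+ arrays of 12 h, 8.14 and 8.30 on those of 24 h and 7.95, 7.92 and 7.90 on those of 48 h. This was above every Dox− array, which read 5.99 and 6.08 at 12 h, 5.82 and 6.08 at 24 h, and then 5.94, 6.04 and 5.90 at 48 h. Values are the deposited log2 values of robust multi-array averaging (RMA), and array medians lay between 5.15 and 5.28. The spread between replicates (root mean square SD over all genes) was 0.20 in Dox+ and 0.21 in Dox− cells at 12 h, 0.15 and 0.18 at 24 h, and 0.11 in both at 48 h. Hepatocyte markers were well represented, with all 9 of the 10 listed that were measured at or above the 69.0 percentile of gene means. At 48 h 7 of these 9 fell at an adjusted p under 0.05 by limma, where 12.9% of all genes did. Among them APOA1 fell by 0.86 (SE 0.06, adjusted p = 1.69e-05). SERPINA1 rose by 0.54 (SE 0.06, adjusted p = 0.000144), where 11.3% of all genes rose. The 9 hepatocyte markers had a median of −0.40. Their mean level at 48 h was 11.4 to 11.5 in Dox+ and 11.7 to 11.8 in Dox− cells, and the part of this change in the kinesin results was not tested. Among markers of other cells, the 4 leukocyte markers measured ranged from the 6.50 (PTPRC) to the 96.7 percentile, with 2 below the median gene. The 4 endothelial markers ranged from the 8.09 (CDH5, with KDR at 8.35) to the 51.5 percentile, with 3 below it. The 5 fibroblast markers ranged from the 14.9 to the 79.8 percentile, with 3 below it. LYZ, listed for leukocytes, and LUM, listed for fibroblasts, were bright, at the 96.7 and 79.8 percentile. Mean levels over the 5 fibroblast markers at 48 h were 6.43 to 6.52 in Dox+ and 6.13 to 6.27 in Dox− cells. Of these 5, LUM rose by 1.23 (SE 0.11, adjusted p = 5.95e-05) and DCN by 0.20 (SE 0.06, adjusted p = 0.0388), where 11.3% of all genes rose. The median of the 5 was −0.015. Of the 4 leukocyte markers LYZ fell by 0.92 (SE 0.08, adjusted p = 5.24e-05), where 12.9% of all genes fell. None of the 4 rose, and the median was 0.11. None of the 4 endothelial markers passed, where 24.2% of all genes did. The part of such cells in the kinesin results was not tested.

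Mitotic kinesins were lower in Dox+ than in Dox− cells at 24 h and 48 h, while transport kinesins moved in both directions. At 48 h 12 of the 13 mitotic kinesins fell and none rose, at an adjusted p under 0.05 by limma over all genes, where 12.9% of all genes fell and 11.3% rose. Their log2 differences, Dox+ minus Dox−, had a median of −0.66, against −0.02 over all genes. Of the 15 transport kinesins 5 rose (KIF5C, KIFC2, KIF3A, KIF3C and KIF3B) and 2 fell (KIF13B and KIF1C), with a median of 0.05. Among the 13 other kinesins KIF21B and KIF21A fell and KIF2A rose. KIF2A also acts at spindle poles, and with it counted as mitotic 12 of 14 fell and 1 rose, with a median of −0.65. At 24 h 9 mitotic kinesins fell, 1 transport kinesin (KIF5B) fell and 1 (KIF5C) rose, where 2.81% of all genes fell and 3.01% rose. At 12 h no kinesin passed the test, where 0.0202% of all genes fell and 0.647% rose, and 6 of the 41 had an unadjusted p under 0.05. In either direction 22 of the 41 kinesins passed at 48 h, 11 at 24 h and 0 at 12 h, where 24.2%, 5.83% and 0.668% of all genes did. Bulk RNA averages a culture, so fewer dividing cells and less transcript per cell cannot be told apart.

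**Figure D1:**
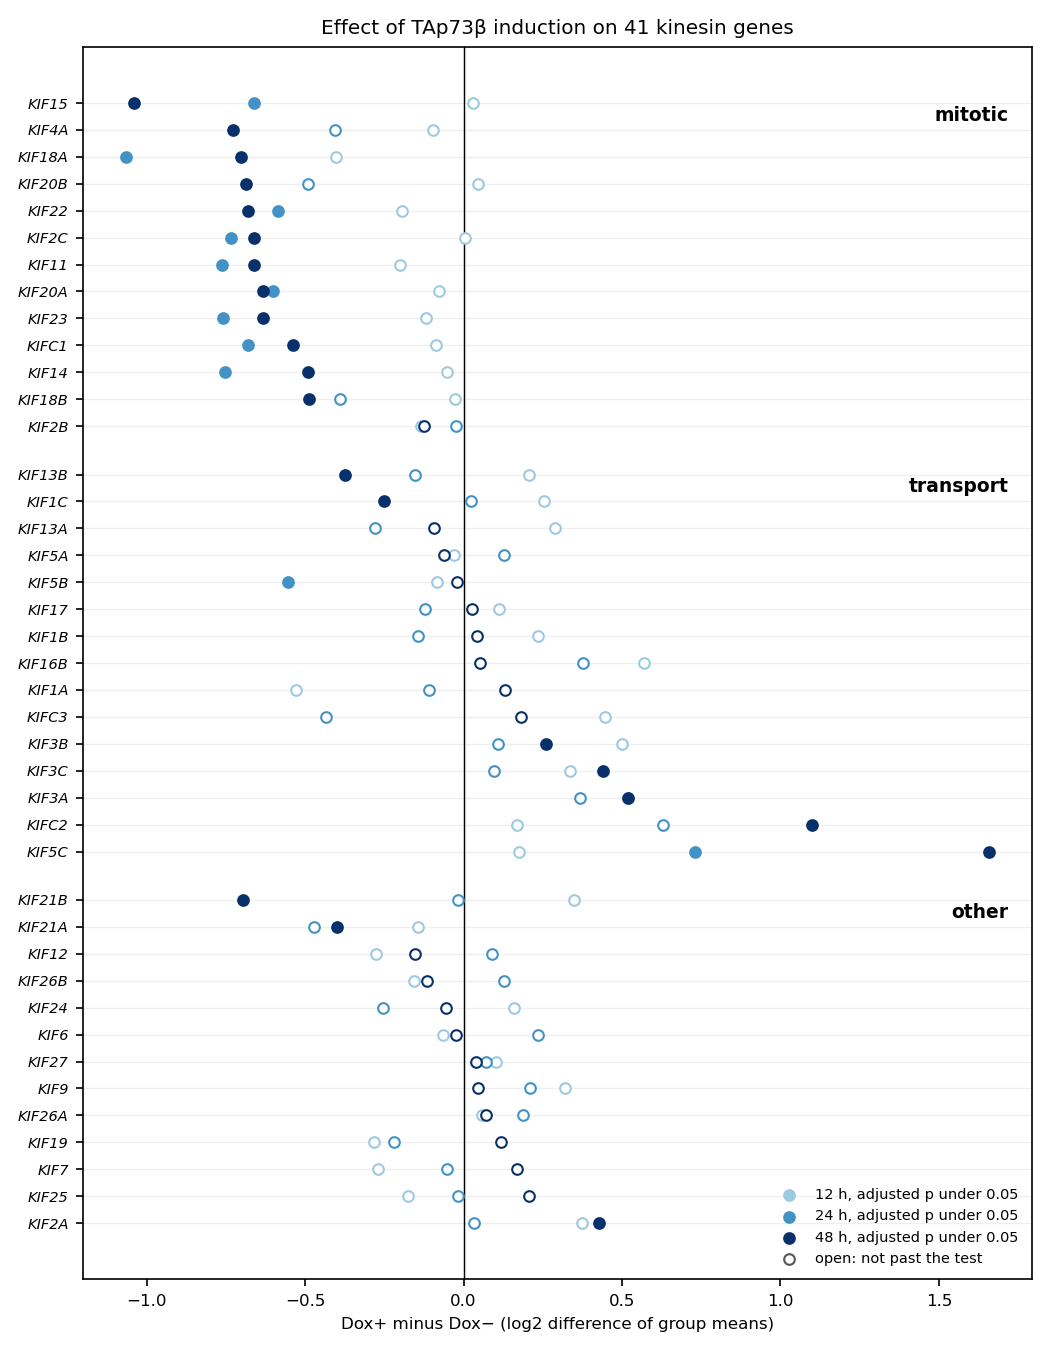
Log2 difference between Dox+ and Dox− cells (horizontal axis) for each of the 41 kinesin genes, ordered within class by the difference at 48 h. Light, middle and dark points are 12 h, 24 h and 48 h, filled where the adjusted p was under 0.05: 12 mitotic kinesins lie left of 0 at 48 h with filled points, and KIF5C lies farthest right at 1.66.

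Dox+ replicate 3 at 48 h had the lowest Dox+ value for all 12 mitotic kinesins that fell and the highest for all 5 transport kinesins that rose. This did not hold for every kinesin called, since KIF21B, which fell, was highest there (6.98, 7.07 and 7.16 on the Dox+ arrays). The share of all called genes that were most extreme on this array was not counted. The mean deviation of the 13 mitotic kinesins from their own means was −0.26, −0.26 and −0.56 on the 3 Dox+ arrays, against 0.25, 0.32 and 0.23 on the 3 Dox− arrays. CCNA2, the S and G2 phase cyclin, read 10.01, 10.00 and 9.69 on the Dox+ arrays in the same order, and CDKN1A, the p21 inhibitor of cyclin-dependent kinases, read 12.09, 12.09 and 12.29. TP73 read 7.95, 7.92 and 7.90 on the same arrays. Why replicate 3 differed was not tested. Without Dox+ replicate 3 the median of the mitotic kinesins at 48 h was −0.51, and 12 of 13 were still called lower.

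**Figure D2:**
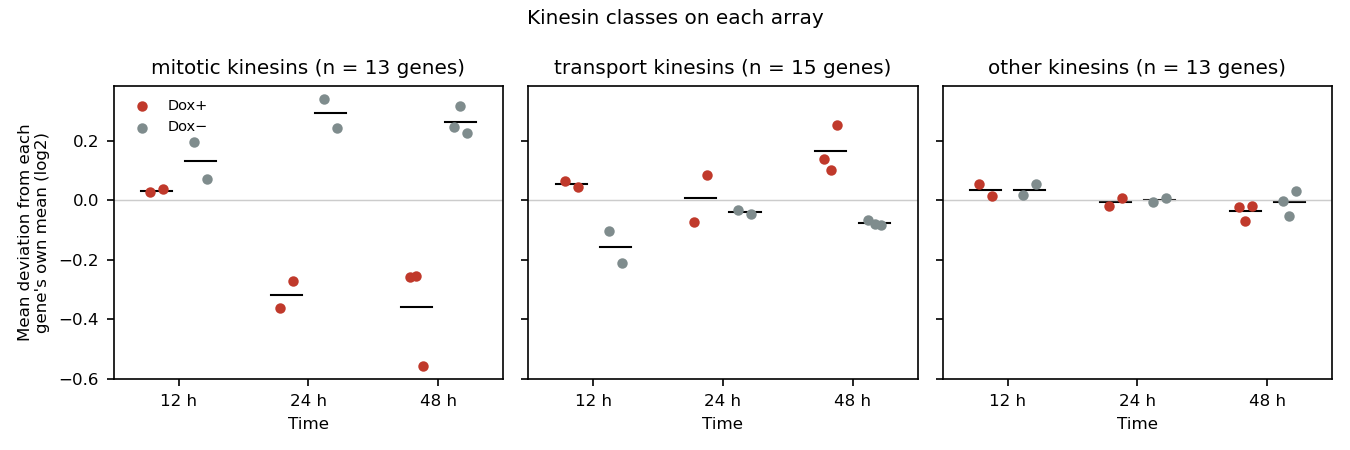
Mean deviation from each gene's own mean over the 14 arrays (vertical axis, log2) of the mitotic, transport and other kinesins on each array, Dox+ in red left of Dox− in grey, bars at group means. Mitotic kinesins lie below 0 on all Dox+ arrays at 24 h and 48 h, with 1 Dox+ array at −0.56, and the other kinesins stay between −0.07 and 0.05 on all 14 arrays.

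The control regions of the mitotic kinesins share short sequence elements. The cell cycle genes homology region (CHR, TTTGAA, with the form TTCGAA) is bound by the DREAM and B-MYB complexes that time late cell cycle genes, and the CCAAT box (CCAAT) by the factor NF-Y. Windows of 300 bases, 250 before to 50 after the gene start (RefSeq, GRCh38.p14), were matched for 33 of the 41 kinesins and searched on both strands, and no matches of different elements overlapped. A CHR in either form occurred in 10 of 13 mitotic windows (76.9%), in 1 of 11 transport windows (KIF5B), in 1 of 9 other windows (KIF24) and in 16.6% of all 27305 windows. A CCAAT box occurred in 10 of 13 mitotic windows, 3 of 11 transport windows and 35.7% of all windows. Both occurred in 9 mitotic windows and in 6.58% of all. E2F sites (TTTCGCGC or TTTGGCGC) were found in 1 mitotic window, that of KIF15, and in 1.18% of all. KIF2B, KIF2C and KIF20A had no CHR in either of the forms searched in these windows. A match is a description of the letters and not a measured site. The 100 bases before the start are shown for KIF15, KIF18A, KIF11, KIF4A and KIF22, the mitotic genes with the CHR closest before the start, for KIF2C, a mitotic gene that fell without it, and for KIF3A, a transport gene that rose. They run 5′ to 3′ on the strand of the gene, with CHR and CCAAT matches of either strand in capitals (TTCAAA and ATTGG are the opposite strand).
KIF15: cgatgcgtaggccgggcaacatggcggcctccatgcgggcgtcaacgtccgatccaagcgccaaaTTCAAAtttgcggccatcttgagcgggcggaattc
KIF18A: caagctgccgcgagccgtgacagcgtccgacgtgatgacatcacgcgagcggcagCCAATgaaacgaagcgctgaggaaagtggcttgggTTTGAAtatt
KIF11: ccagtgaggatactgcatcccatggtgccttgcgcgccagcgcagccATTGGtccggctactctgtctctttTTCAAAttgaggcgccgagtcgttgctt
KIF4A: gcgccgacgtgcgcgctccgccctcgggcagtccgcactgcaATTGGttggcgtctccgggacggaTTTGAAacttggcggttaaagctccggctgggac
KIF22: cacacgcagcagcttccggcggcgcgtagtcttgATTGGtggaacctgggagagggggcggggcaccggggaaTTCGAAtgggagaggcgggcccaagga
KIF2C: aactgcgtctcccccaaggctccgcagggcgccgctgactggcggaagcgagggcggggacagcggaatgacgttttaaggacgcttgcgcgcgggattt
KIF3A: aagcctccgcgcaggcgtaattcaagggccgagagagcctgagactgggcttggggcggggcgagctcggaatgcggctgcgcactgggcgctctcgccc
The stretches lie at chr3:44761694-44761793 (plus strand) for KIF15, chr11:28108157-28108256 (minus strand) for KIF18A, chr10:92593030-92593129 (plus strand) for KIF11, chrX:70290004-70290103 (plus strand) for KIF4A, chr16:29790651-29790750 (plus strand) for KIF22, chr1:44739737-44739836 (plus strand) for KIF2C and chr5:132737547-132737646 (minus strand) for KIF3A. The CHR match began 35 bases before the start in KIF15, 10 in KIF18A, 28 in KIF11, 34 in KIF4A and 27 in KIF22. It began 55 bases before the start in KIF23 and after the start, outside such a stretch, in KIF14, KIF18B, KIFC1 and KIF20B. KIF15 had no CCAAT box in its window. Of the mitotic genes without a CHR in the forms searched, KIF2C differed by −0.66 and KIF20A by −0.63 at 48 h. KIF2B differed by −0.12 without passing. The part of these elements in the differences was not tested.

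Spindle assembly kinesins were all lower at both later times. KIF15, a plus-end motor that helps keep the spindle poles apart, read 7.59, 7.62 and 7.28 on the Dox+ arrays, against 8.48, 8.54 and 8.60 on the Dox− arrays at 48 h. All Dox+ values lay under all Dox− values, by a log2 difference of −1.04 (SE 0.09, adjusted p = 5.95e-05), which left 0.487 of the Dox− level, the largest fall of any kinesin at 48 h. At the earlier times KIF15 read 8.19 and 8.18 in Dox+ against 8.10 and 8.22 in Dox− cells at 12 h, and 7.51 and 7.74 in Dox+ against 8.40 and 8.17 in Dox− cells at 24 h. The groups overlapped at 12 h and were apart at 24 h, where the difference was −0.66 (SE 0.15, adjusted p = 0.0351). The motor KIF11, also called Eg5, slides antiparallel microtubules apart and is needed for a bipolar spindle. It read 10.11 and 10.02 in Dox+ against 10.49 and 10.04 in Dox− cells at 12 h, 9.68 and 9.79 in Dox+ against 10.56 and 10.44 in Dox− cells at 24 h, and 9.85, 9.76 and 9.34 in Dox+ against 10.32, 10.44 and 10.17 in Dox− cells at 48 h. One of the Dox− arrays at 12 h lay among the Dox+ ones, and the groups were apart afterwards. KIF11 fell by 0.76 at 24 h (SE 0.13, adjusted p = 0.0125) and by 0.66 at 48 h (SE 0.13, adjusted p = 0.00515). KIFC1, a minus-end motor that focuses poles and clusters extra centrosomes, read 9.29 and 9.51 in Dox+ against 9.42 and 9.55 in Dox− cells at 12 h, 9.23 and 9.20 in Dox+ against 9.79 and 9.99 in Dox− cells at 24 h, and 9.27, 9.14 and 9.04 in Dox+ against 9.67, 9.79 and 9.60 in Dox− cells at 48 h. Its difference was −0.68 (SE 0.13, adjusted p = 0.0223) at 24 h and −0.54 (SE 0.08, adjusted p = 0.00115) at 48 h, with Dox+ arrays below all Dox− arrays at both times.

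Of the 4 mitotic kinesins that shorten or cap spindle microtubules 3 fell at 48 h, where 12.9% of all genes did. KIF18A and KIF2C fell at 24 h too, where 2.81% of all genes did. KIF18A, which limits the swings of chromosomes at the metaphase plate, read 8.0 and 7.69 in Dox+ against 8.54 and 7.95 in Dox− cells at 12 h, 7.25 and 7.53 in Dox+ against 8.52 and 8.39 in Dox− cells at 24 h, and 7.96, 7.97 and 7.75 in Dox+ against 8.63, 8.68 and 8.48 in Dox− cells at 48 h. Its 24 h arrays showed the largest fall of any kinesin at that time, −1.06 (SE 0.14, adjusted p = 0.00407), or 0.478 of the Dox− level, against −0.70 (SE 0.08, adjusted p = 0.000288) at 48 h. Its 12 h Dox− arrays spread over more than the gap between the groups. KIF18B, its relative on astral microtubules, read 10.21 and 10.38 in Dox+ against 10.32 and 10.33 in Dox− cells at 12 h, 9.95 and 10.00 in Dox+ against 10.38 and 10.34 in Dox− cells at 24 h, and 9.85, 9.81 and 9.45 in Dox+ against 10.28, 10.17 and 10.13 in Dox− cells at 48 h. The Dox+ arrays of KIF18B were below the Dox− arrays at 24 h without passing the test (−0.39, adjusted p = 0.116), and it fell at 48 h (−0.49, SE 0.10, adjusted p = 0.00815). KIF2C, known as MCAK, takes apart microtubules that are wrongly attached to kinetochores. It read 9.89 and 10.11 in Dox+ against 10.04 and 9.95 in Dox− cells at 12 h, 9.43 and 9.62 in Dox+ against 10.39 and 10.13 in Dox− cells at 24 h, and 9.57, 9.63 and 9.39 in Dox+ against 10.11, 10.29 and 10.17 in Dox− cells at 48 h. The groups overlapped at 12 h (0.01), and KIF2C differed by −0.73 (SE 0.15, adjusted p = 0.0232) at 24 h and −0.66 (SE 0.08, adjusted p = 0.000383) at 48 h. KIF2B, a relative of KIF2C, had a weak signal at the 16.7 percentile of gene means, read 4.02, 3.90 and 4.11 in Dox+ and 4.15, 4.08 and 4.17 in Dox− cells at 48 h, and differed by −0.12 (adjusted p = 0.26).

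Chromosome-bound kinesins fell at 48 h, KIF22 already at 24 h. KIF4A, a chromokinesin that also works with PRC1 in the anaphase midzone, read 10.27 and 10.06 in Dox+ against 10.34 and 10.19 in Dox− cells at 12 h, 9.80 and 9.86 in Dox+ against 10.25 and 10.21 in Dox− cells at 24 h, and 9.47, 9.51 and 9.15 in Dox+ against 10.09, 10.10 and 10.13 in Dox− cells at 48 h. The Dox− arrays stayed within 10.09 to 10.34 at all times, and the Dox+ arrays were lowest at 48 h. The difference was −0.41 (SE 0.13, adjusted p = 0.104) at 24 h and −0.73 (SE 0.09, adjusted p = 0.000516) at 48 h. KIF22, called Kid, pushes chromosome arms away from the poles. It read 8.80 and 8.96 in Dox+ against 9.17 and 8.98 in Dox− cells at 12 h, 8.55 and 8.72 in Dox+ against 9.22 and 9.22 in Dox− cells at 24 h, and 8.66, 8.63 and 8.37 in Dox+ against 9.15, 9.26 and 9.29 in Dox− cells at 48 h. All Dox+ arrays were under all Dox− arrays at each time, by −0.19 at 12 h without passing (adjusted p = 0.603). KIF22 fell by 0.58 (SE 0.13, adjusted p = 0.0367) at 24 h and by 0.68 (SE 0.08, adjusted p = 0.000458) at 48 h. Its 24 h call depended on each array, and the difference ranged from −0.67 to −0.50 with 1 array left out.

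Midzone and cytokinesis kinesins made up the last mitotic group, and all 4 fell at 48 h, where 12.9% of all genes did. KIF20A (MKLP2) brings Aurora B and its partners to the midzone, and read 9.38 and 9.46 in Dox+ against 9.51 and 9.49 in Dox− cells at 12 h, 8.95 and 8.96 in Dox+ against 9.63 and 9.48 in Dox− cells at 24 h, and 9.01, 9.07 and 8.66 in Dox+ against 9.48, 9.64 and 9.52 in Dox− cells at 48 h. Dox+ arrays lay below Dox− arrays at each time, by −0.08 at 12 h without passing (adjusted p = 0.833). The difference was −0.60 (SE 0.13, adjusted p = 0.0318) at 24 h and −0.63 (SE 0.11, adjusted p = 0.00228) at 48 h. The 24 h call of KIF20A depended on each array, and the difference ranged from −0.68 to −0.53 with 1 array left out. KIF23 (MKLP1), which forms the centralspindlin complex with RACGAP1, read 8.30 and 8.31 in Dox+ against 8.58 and 8.28 in Dox− cells at 12 h, 7.86 and 7.96 in Dox+ against 8.84 and 8.50 in Dox− cells at 24 h, and 8.16, 8.31 and 7.80 in Dox+ against 8.73, 8.88 and 8.56 in Dox− cells at 48 h. Its difference was −0.76 (SE 0.15, adjusted p = 0.0231) at 24 h and −0.63 (SE 0.13, adjusted p = 0.0069) at 48 h, with Dox+ arrays below all Dox− arrays at both times. KIF14, a midbody motor that binds citron kinase, read 10.12 and 10.36 in Dox+ against 10.42 and 10.16 in Dox− cells at 12 h, 9.97 and 9.82 in Dox+ against 10.72 and 10.57 in Dox− cells at 24 h, and 10.27, 10.25 and 9.97 in Dox+ against 10.63, 10.68 and 10.64 in Dox− cells at 48 h. The groups overlapped at 12 h and not later, with −0.75 (SE 0.13, adjusted p = 0.0145) at 24 h and −0.49 (SE 0.08, adjusted p = 0.00251) at 48 h. KIF20B, known as MPP1, acts late in cytokinesis and read 9.19 and 9.08 in Dox+ against 9.11 and 9.07 in Dox− cells at 12 h, 8.63 and 8.89 in Dox+ against 9.33 and 9.17 in Dox− cells at 24 h, and 8.73, 8.88 and 8.25 in Dox+ against 9.30, 9.36 and 9.27 in Dox− cells at 48 h. The groups overlapped at 12 h. KIF20B differed by −0.49 at 24 h (adjusted p = 0.0876) and fell at 48 h (−0.69, SE 0.14, adjusted p = 0.00619).

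Across the 12 mitotic kinesins that fell at 48 h, the level left in Dox+ cells ranged from 0.487 to 0.713 of that in Dox− cells. At 24 h Dox+ arrays of the same 12 lay below all Dox− arrays, where 23.7% of all genes did so, and 6 of them had a larger difference at 24 h than at 48 h. The class medians were −0.09 at 12 h, −0.66 at 24 h and −0.66 at 48 h, beside −0.04, 0.02 and −0.02 over all genes. Calls at 24 h, from 2 arrays a group, depended on each array. Leaving out Dox+ replicate 1 gave 3 kinesins called, all mitotic and lower. With Dox+ replicate 2 left out 7 were called, 5 of them mitotic and lower. When Dox− replicate 1 was dropped 3 passed, 2 of them mitotic and lower, and 6 passed when it was Dox− replicate 2, with 5 mitotic and lower. KIF18A passed at 24 h with each of the 4 arrays left out. At 48 h all 12 passed whichever array was left out. The share of all genes called with 1 array left out was not counted.

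**Figure D3:**
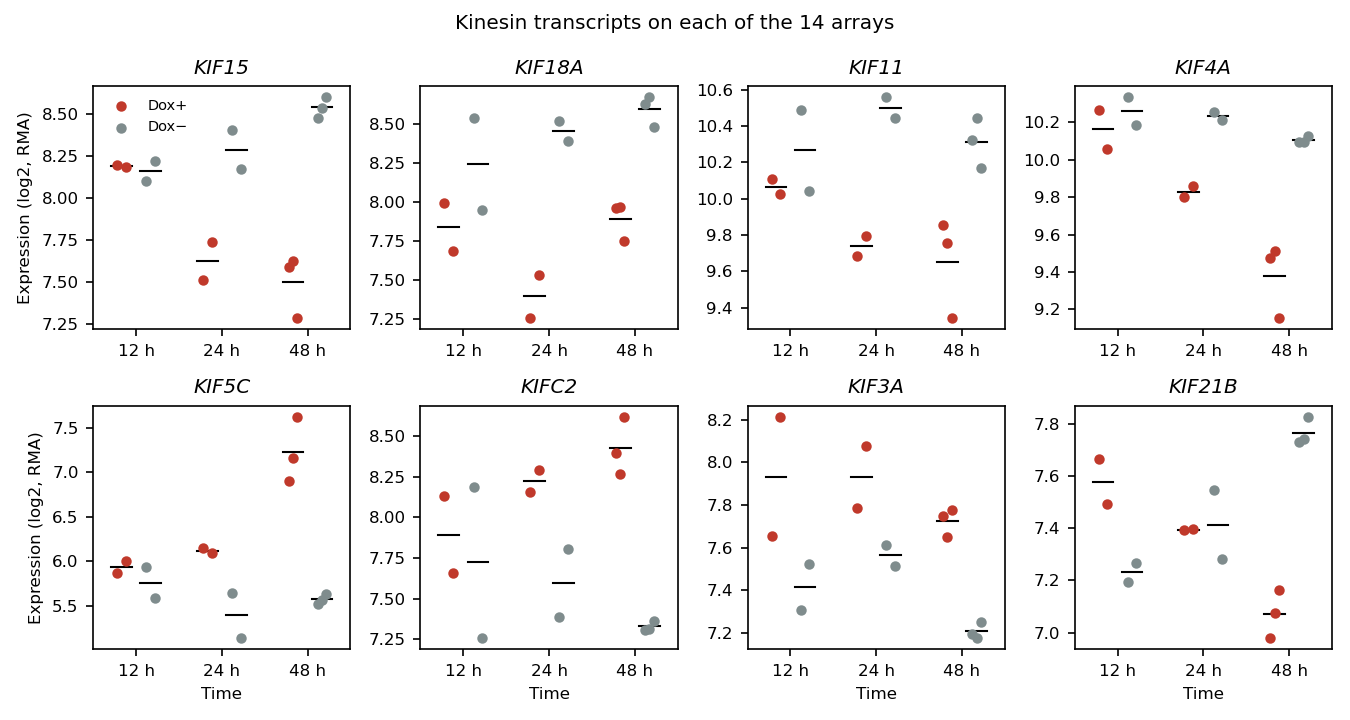
Log2 RMA value (vertical axis, a separate scale per gene) of 8 kinesins on each array by time, Dox+ in red left of Dox− in grey, with bars at the group means. KIF15, KIF18A, KIF11 and KIF4A show Dox+ points under the Dox− points at 24 h and 48 h, KIF5C and KIFC2 show them above, and KIF21B shows them above at 12 h and below at 48 h.

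The kinesin-1 heavy chains of the transport class did not move together. KIF5C, a kinesin-1 heavy chain known mainly from neurons, had the largest change of any kinesin by the probe sets used. It read 5.86 and 6.0 in Dox+ against 5.93 and 5.58 in Dox− cells at 12 h, 6.14 and 6.09 in Dox+ against 5.64 and 5.14 in Dox− cells at 24 h, and 6.90, 7.16 and 7.62 in Dox+ against 5.51, 5.56 and 5.63 in Dox− cells at 48 h. The groups overlapped at 12 h, and all Dox+ arrays lay above all Dox− arrays at 24 h and 48 h. The difference was 0.73 (SE 0.17, adjusted p = 0.0452) at 24 h and 1.66 (SE 0.15, adjusted p = 7.2e-05) at 48 h, a fold change of 3.16, Dox+ over Dox−. The 24 h call was lost when Dox+ replicate 1 (adjusted p = 0.0808) or Dox− replicate 2 (adjusted p = 0.12) was left out. Its mean lay at the 45.4 percentile of genes, so in Dox− cells it was a dim transcript. Of its other probe sets 1 also rose at 48 h, by 0.56 (adjusted p = 0.000796), and 1 differed by 0.02 (adjusted p = 0.886). The probe set used was the brightest with the Dox+ arrays counted in, a choice that favours the larger rise. KIF5B, the kinesin-1 heavy chain of most cell types, read 10.86 and 10.56 in Dox+ against 10.98 and 10.60 in Dox− cells at 12 h, 10.73 and 10.58 in Dox+ against 11.21 and 11.21 in Dox− cells at 24 h, and 11.01, 11.03 and 10.96 in Dox+ against 11.04, 11.00 and 11.02 in Dox− cells at 48 h. It fell at 24 h (−0.55, SE 0.13, adjusted p = 0.0429) and overlapped between groups at 48 h (−0.02, adjusted p = 0.836), and its fall at 24 h did not pass with any 1 of the 4 arrays left out. KIF5A, also neuronal, differed by −0.06 at 48 h (adjusted p = 0.659).

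C-terminal transport motors were represented by KIFC2 and KIFC3. KIFC2, known from axons, read 8.13 and 7.66 in Dox+ against 8.19 and 7.26 in Dox− cells at 12 h, 8.16 and 8.29 in Dox+ against 7.39 and 7.80 in Dox− cells at 24 h, and 8.40, 8.27 and 8.62 in Dox+ against 7.30, 7.32 and 7.36 in Dox− cells at 48 h. The 12 h arrays spread widely in both groups, and at 48 h the Dox− arrays lay close together and under all Dox+ arrays. The difference was 0.63 (SE 0.16, adjusted p = 0.0582) at 24 h and 1.10 (SE 0.09, adjusted p = 2.88e-05) at 48 h, a fold change of 2.14. The other KIFC2 probe set rose at both times, by 0.65 (adjusted p = 0.0275) at 24 h and 0.67 (adjusted p = 0.00462) at 48 h. Here too the probe set used was chosen with the Dox+ arrays counted in. KIFC3, which acts at epithelial junctions and in apical transport, read 6.19 and 6.10 in Dox+ against 5.66 and 5.74 in Dox− cells at 12 h, 5.36 and 6.05 in Dox+ against 6.04 and 6.24 in Dox− cells at 24 h, and 6.40, 6.21 and 6.38 in Dox+ against 6.04, 6.26 and 6.14 in Dox− cells at 48 h. Its Dox+ arrays lay above at 12 h only, and it passed at no time (adjusted p = 0.273, 0.301 and 0.14 in time order).

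Kinesin-2 motors, which carry cargo into cilia and along microtubules elsewhere, were the transport group with the most calls. At 48 h 3 of 4 rose, where 11.3% of all genes did. KIF3A read 7.65 and 8.21 in Dox+ against 7.31 and 7.52 in Dox− cells at 12 h, 7.79 and 8.08 in Dox+ against 7.61 and 7.51 in Dox− cells at 24 h, and 7.75, 7.65 and 7.78 in Dox+ against 7.19, 7.18 and 7.25 in Dox− cells at 48 h. Dox+ arrays lay above Dox− arrays at every time, and the test was passed at 48 h (0.52, SE 0.06, adjusted p = 0.00031). The other, dimmer KIF3A probe set differed by 0.31 (adjusted p = 0.0741). KIF3B, the partner of KIF3A in the heterotrimeric motor, read 9.98 and 9.76 in Dox+ against 9.37 and 9.37 in Dox− cells at 12 h, 9.59 and 9.70 in Dox+ against 9.54 and 9.53 in Dox− cells at 24 h, and 9.78, 9.77 and 9.85 in Dox+ against 9.52, 9.48 and 9.62 in Dox− cells at 48 h. It was also higher on each Dox+ array at every time, by 0.50, 0.11 and 0.26, with an adjusted p of 0.0147 at 48 h. That call was narrow, with an adjusted p of 0.0515 when Dox− replicate 1 was left out and 0.0550 when Dox− replicate 2 was. KIF3C, which can replace KIF3B as the partner, rose by 0.44 (SE 0.09, adjusted p = 0.00798), with 7.07, 7.03 and 7.34 on the Dox+ arrays, against 6.83, 6.64 and 6.65 on the Dox− arrays. KIF17, a homodimeric motor of the same family, differed by 0.03 (adjusted p = 0.867).

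Kinesin-3 motors carry vesicles and endosomes. Of 6 measured 2 fell at 48 h and none rose, where 12.9% of all genes fell and 11.3% rose. KIF13B fell by 0.38 (SE 0.08, adjusted p = 0.0075), with 7.71, 7.54 and 7.79 on the Dox+ arrays, against 8.12, 7.96 and 8.09 on the Dox− arrays. KIF1C fell by 0.25 (SE 0.08, adjusted p = 0.039), with 8.44, 8.56 and 8.33 on the Dox+ arrays, against 8.71, 8.61 and 8.76 on the Dox− arrays, and this call was lost in 9 of 15 alternative settings (adjusted p from 0.0121 to 0.248). Among the arrays, KIF1C did not pass when Dox+ replicate 1 (0.0926) or 3 (0.105) was left out, nor when Dox− replicate 1 (0.105) or 3 (0.126) was. KIF13A, a motor of recycling endosomes, read 10.64 and 10.55 in Dox+ against 10.50 and 10.12 in Dox− cells at 12 h, 10.27 and 10.51 in Dox+ against 10.86 and 10.48 in Dox− cells at 24 h, and 10.86, 10.89 and 11.10 in Dox+ against 11.12, 11.02 and 10.99 in Dox− cells at 48 h. It passed at no time with this probe set (−0.09, adjusted p = 0.468 at 48 h), while 1 of its 5 others fell by 0.57 (adjusted p = 0.00956). KIF1B, which carries mitochondria and synaptic vesicle precursors in neurons, read 9.39 and 9.58 in Dox+ against 9.33 and 9.17 in Dox− cells at 12 h, 9.21 and 9.58 in Dox+ against 9.60 and 9.47 in Dox− cells at 24 h, and 9.27, 9.35 and 9.59 in Dox+ against 9.33, 9.38 and 9.37 in Dox− cells at 48 h. Its groups overlapped at 24 h and 48 h, and the difference at 48 h was 0.04 (adjusted p = 0.785). KIF16B, a motor of early endosomes, and KIF1A, the neuronal motor of synaptic vesicle precursors, differed at 48 h by 0.05 and 0.13 without passing.

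As a class, transport kinesins had medians of 0.23 at 12 h, 0.02 at 24 h and 0.05 at 48 h. At 12 h Dox+ arrays lay above all Dox− arrays in 9 of the 15, where 19.3% of all genes did so, and none passed the test. KIF16B read 7.12 and 6.97 in Dox+ against 6.38 and 6.57 in Dox− cells (0.57, adjusted p = 0.209, the smallest of the kinesins at 12 h). KIF1A differed most in the other direction, in which KIF5B (−0.08) and KIF5A (−0.03) also lay, with 6.10 and 6.27 in Dox+ against 6.67 and 6.76 in Dox− cells (−0.53, adjusted p = 0.222). With all 14 arrays in 1 fit, KIF16B and KIF3B were called higher and KIF1A lower at 12 h. The share of all genes called at 12 h in that fit was not counted. The 12 h median was 0.11 with the probe set of largest interquartile range. The 24 h median was −0.055 with Dox+ replicate 2 left out and −0.015 with Dox− replicate 2 left out, and the 48 h median lay between 0.0077 (without Dox+ replicate 3) and 0.11 (without Dox+ replicate 1).

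KIF21B had the largest difference of the other kinesins at 48 h. It pauses microtubule growth in neurons and T cells. It read 7.67 and 7.49 in Dox+ against 7.19 and 7.27 in Dox− cells at 12 h, 7.39 and 7.40 in Dox+ against 7.55 and 7.28 in Dox− cells at 24 h, and 6.98, 7.07 and 7.16 in Dox+ against 7.73, 7.74 and 7.83 in Dox− cells at 48 h. The Dox+ arrays lay above the Dox− arrays at 12 h, among them at 24 h and below them at 48 h, where the difference was −0.70 (SE 0.07, adjusted p = 9.56e-05). KIF21A, its relative at the cell cortex, read 11.05 and 11.42 in Dox+ against 11.43 and 11.33 in Dox− cells at 12 h, 11.03 and 11.13 in Dox+ against 11.62 and 11.49 in Dox− cells at 24 h, and 11.19, 11.17 and 11.12 in Dox+ against 11.53, 11.59 and 11.55 in Dox− cells at 48 h. It fell at 48 h (−0.40, SE 0.06, adjusted p = 0.000856), and its other probe set differed by −0.28 (adjusted p = 0.448). KIF2A, a microtubule depolymerase of spindle poles and growing neurites, read 10.48 and 10.22 in Dox+ against 10.23 and 9.72 in Dox− cells at 12 h, 10.39 and 10.34 in Dox+ against 10.38 and 10.29 in Dox− cells at 24 h, and 10.76, 10.81 and 10.77 in Dox+ against 10.35, 10.39 and 10.32 in Dox− cells at 48 h. In contrast to its relative KIF2C it rose at 48 h (0.43, SE 0.06, adjusted p = 0.000581), as did its other probe set, by 0.37 (adjusted p = 0.0193). The 10 others differed by −0.15 to 0.21 at 48 h without passing.

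Among those 10, the ciliary kinesins KIF6, KIF7, KIF9, KIF19, KIF24 and KIF27 passed at no time. Of all genes 24.2% passed at 48 h, 5.83% at 24 h and 0.668% at 12 h. KIF9, a motor of beating cilia, read 7.61 and 8.09 in Dox+ against 7.33 and 7.73 in Dox− cells at 12 h, 7.85 and 7.57 in Dox+ against 7.63 and 7.37 in Dox− cells at 24 h, and 7.65, 7.70 and 7.66 in Dox+ against 7.63, 7.64 and 7.61 in Dox− cells at 48 h, with a difference of 0.04 at 48 h (adjusted p = 0.64). KIF7, a part of Hedgehog signalling in the cilium, read 6.62 and 6.41 in Dox+ against 6.75 and 6.81 in Dox− cells at 12 h, 6.77 and 6.70 in Dox+ against 6.72 and 6.85 in Dox− cells at 24 h, and 6.85, 6.74 and 6.73 in Dox+ against 6.63, 6.56 and 6.62 in Dox− cells at 48 h. Its Dox+ arrays were below the Dox− arrays at 12 h and above them at 48 h, with 0.17 and an adjusted p of 0.082. KIF12, expressed in kidney and liver, read 6.61 and 6.05 in Dox+ against 6.42 and 6.79 in Dox− cells at 12 h, 6.48 and 6.58 in Dox+ against 6.27 and 6.61 in Dox− cells at 24 h, and 6.51, 5.88 and 6.44 in Dox+ against 6.42, 6.30 and 6.57 in Dox− cells at 48 h, and the groups overlapped at each time. KIF25 read 6.36 and 6.31 in Dox+ against 6.49 and 6.53 in Dox− cells at 12 h, 6.16 and 6.24 in Dox+ against 6.13 and 6.31 in Dox− cells at 24 h, and 6.27, 6.41 and 6.20 in Dox+ against 6.14, 6.02 and 6.11 in Dox− cells at 48 h. The difference at 48 h was 0.21 (adjusted p = 0.0669), while its dimmer other probe set rose by 0.33 (adjusted p = 0.0348). KIF26A and KIF26B, divergent members of the family, differed by 0.07 and −0.12. Of the 13 other kinesins 8 had means below that of the median gene, against 5 of 15 transport and 1 of 13 mitotic kinesins, and low signal limits what these arrays could show for them.

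Probe sets that were not used to represent a gene gave another reading for 26 of the 41 kinesins. Of 6 such probe sets of mitotic kinesins, 3 fell at 48 h, with differences of −0.84 (adjusted p = 0.000172) for KIF2C, −0.64 (adjusted p = 0.00697) for KIF14 and −0.61 (adjusted p = 0.0122) for KIF22. The other 3, of KIF20B and KIF23, were dim, with mean log2 values from 3.66 to 4.93, and differed by −0.01, 0.01 and −0.18. Of 24 probe sets of transport kinesins 4 rose, those of KIF5C, KIFC2, KIF3C (0.62, adjusted p = 0.00786) and KIF3B (0.22, adjusted p = 0.0459), and 2 fell, of KIF13A and KIF1B. Adjustment here was over all probe sets that name 1 gene, of which 9.19% fell and 8.19% rose, and under it the used probe set of KIF1C no longer passed (adjusted p = 0.0577).

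**Figure D4:**
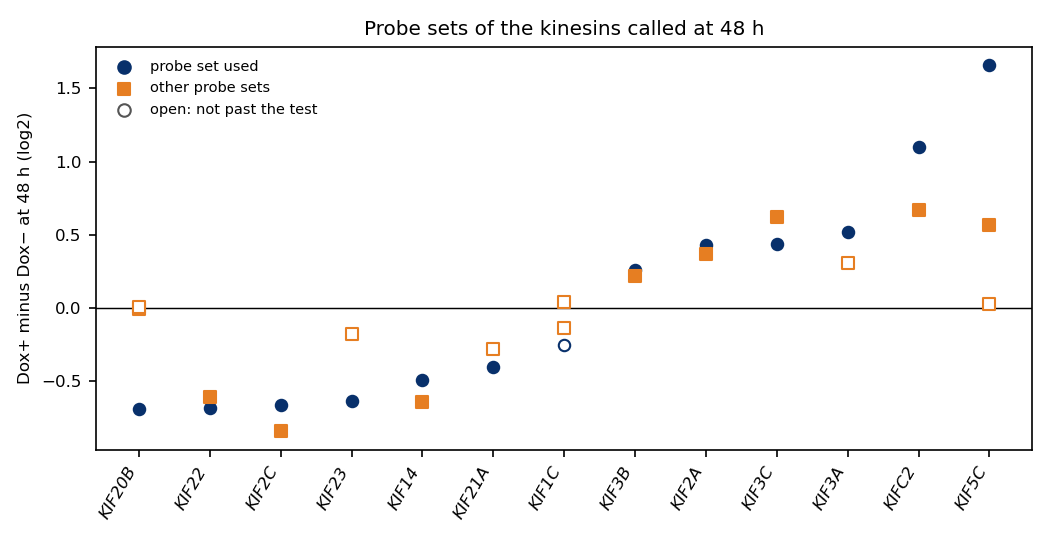
Log2 difference between Dox+ and Dox− cells at 48 h (vertical axis) of each probe set of the 13 kinesins called at 48 h that have several, blue circles for the probe set used and orange squares for the others, open where the adjusted p over all probe sets was 0.05 or more. Other probe sets of KIF22, KIF2C and KIF14 lie below 0 and those of KIFC2, KIF3C and KIF2A above it, while those of KIF20B lie at 0.

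Some kinesins changed their response between time points by the interaction test. Against 12 h the effect at 48 h was lower for KIF15 (−1.07) and KIF21B (−1.04) and higher for KIF5C (1.48), with and without array weights, where 0.44% of all genes were lower and 0.612% higher in both fits. The adjusted p was 0.00377 for KIF15, 0.00141 for KIF21B and 0.00669 for KIF5C, and with weights 0.0264, 0.00862 and 0.0499. Against 24 h KIF21B alone passed, with −0.68 (SE 0.15, adjusted p = 0.0483), where 0.157% of all genes were lower and 0.501% higher in both fits. Within Dox+ cells KIF4A (−0.78), KIF15 (−0.69), KIF18B (−0.59) and KIF21B (−0.51) were lower at 48 h than at 12 h and KIF5C (1.30) was higher in both fits, where 1.83% of genes were lower and 3.88% higher. Within Dox− cells KIF13A (0.73), KIF16B (0.56) and KIF21B (0.54) were higher at 48 h and KIF1A (−0.61) and KIF25 (−0.42) lower, where 8.4% of genes were higher and 7.38% lower. The gap of KIF21B at 48 h went with a lower level in Dox+ and a higher level in Dox− cells than at 12 h. Of the 12 mitotic kinesins that fell at 48 h, 11 had a lower Dox+ mean and 10 a higher Dox− mean at 48 h than at 12 h, counted by sign alone. These 12 were picked by their gap at 48 h, which bears on both signs, and all genes were not counted so. In both fits 3 mitotic kinesins passed as lower within Dox+ cells and 0 as higher within Dox− cells. Without weights 6 kinesins differed in effect between 48 h and 12 h, 9 differed within Dox+ cells and 10 within Dox− cells, where 3.2%, 9.22% and 26.5% of all genes did. Time and day of preparation cannot be told apart in contrasts within a group.

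Genes that work with the kinesins were read from lists chosen by textbook function, of which 96 of 103 members were measured. Of 16 measured regulators and partners of mitotic kinesins 13 fell at 48 h and 1 rose, beside 12.9% and 11.3% of all genes, with a median of −0.48. PLK1, a mitotic kinase, differed by −0.77 (SE 0.13, adjusted p = 0.00244), Aurora B (AURKB) by −0.70 (SE 0.10, adjusted p = 0.000829) and its partner survivin (BIRC5) by −0.66 (SE 0.10, adjusted p = 0.000965). The 1 that rose was NUMA1 (0.23, SE 0.06, adjusted p = 0.0244), a spindle pole protein named after its value was seen. CENPE, a kinetochore kinesin without a KIF symbol, fell by 0.55 (SE 0.11, adjusted p = 0.00684), and STARD9, a centrosomal kinesin, rose by 0.38 (SE 0.08, adjusted p = 0.00863). All 13 partners that fell were lowest on Dox+ replicate 3, as the mitotic kinesins were.

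Subunits and adaptors of transport kinesins passed the test about as often as all genes did at 48 h (5 of 20, beside 24.2%). Of 6 light chains and accessory proteins none fell and 2 rose: KIFBP, an inhibitor of kinesins, by 0.29 (SE 0.06, adjusted p = 0.00596) and KIFAP3, the third subunit of the KIF3A and KIF3B motor, by 0.28 (SE 0.08, adjusted p = 0.0298). KLC1 to KLC4, the light chains of the KIF5 motors, differed by 0.05, 0.19, 0.09 and 0.16 without passing. Of 14 cargo adaptors TRAK1, which links KIF5 motors to mitochondria, rose by 0.63 (SE 0.08, adjusted p = 0.000501), MAPK8IP3 (JIP3, an adaptor of KIF5 motors) rose by 0.30 (SE 0.08, adjusted p = 0.0189) and RHOT1, the mitochondrial anchor of TRAK1, fell by 0.24 (SE 0.06, adjusted p = 0.0149). Of 18 genes of dynein and dynactin, the motor of the opposite direction, none fell, beside 12.9% of all genes, and DYNLT1 (0.39), DYNC1H1 (0.38) and DYNC1I2 (0.32) rose, beside 11.3%. Medians at 48 h were 0.17, 0.07 and 0.05 for the 3 lists.

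Markers of proliferation were lower in part. At 48 h 4 of 7 fell and none rose, beside 12.9% and 11.3% of all genes, with a median of −0.36, and their mean level was 10.8 to 11.0 on the Dox+ arrays and 11.2 to 11.3 on the Dox− arrays. CCNA2 changed by −0.69 (SE 0.10, adjusted p = 0.00114), CCNB1 by −0.61 (SE 0.09, adjusted p = 0.00117) and MKI67 by −0.41 (SE 0.07, adjusted p = 0.00361). PCNA, a replication clamp, differed by −0.02 (adjusted p = 0.85). Of 13 regulators of CHR-bearing genes 6 fell and 2 rose at 48 h, beside the same shares of all genes. CDKN1A rose by 2.77 (SE 0.07, adjusted p = 3.84e-08), with 12.09, 12.09 and 12.29 on the Dox+ arrays, against 9.35, 9.44 and 9.37 on the Dox− arrays, and was higher already at 12 h, when no kinesin passed (2.26, SE 0.17, adjusted p = 0.00271). MYBL2 (B-MYB) changed by −0.70 (SE 0.08, adjusted p = 0.000211) and FOXM1 by −0.63 (SE 0.08, adjusted p = 0.000588). RBL2 (p130), a pocket protein of DREAM named after its value was seen, rose by 0.28 (SE 0.08, adjusted p = 0.0365). The part of these genes in the kinesin changes was not tested.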

How the data were processed

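Gene expression was measured on 14 Affymetrix arrays. The deposited values are log2 values that the authors made by RMA; their processing notes give R 3.5.1, and their methods name BRB-ArrayTools and the exclusion of outlier arrays. No further normalization or filter was applied. Probe sets were named from the platform annotation, with 41037 of 41091 matched to RefSeq by Entrez identifier; 11721 have no gene name and 1801 name several genes, and these were not used. For each time point the Dox+ and Dox− arrays were fitted by limma 3.58.1 in R 4.3.3 (lmFit, then eBayes). Tests were two-sided, p-values of the 19775 genes were adjusted together by Benjamini and Hochberg, and calls were made under 0.05, a procedure tested on simulated data. Time points were compared by contrasts in 1 fit of all 14 arrays, named only where they passed also with array weights per time point. The number of arrays limits the precision.

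Members, classes and lists were chosen with earlier results of these data known. Values on every array are given for kinesins past the test at 48 h with a log2 difference of at least 0.5 in size, for those past it at 24 h, and for up to 2 of each role with the highest means; the other lists contribute up to 3 members each, those called at 48 h that changed most, and further list members (PCNA, KLC1 to KLC4, NUMA1, RBL2, SERPINA1, PTPRC, CDH5 and KDR) were named after their values were seen. Same-numbered replicates were checked for pairing: their deviations correlated by 0.25 at 12 h, −0.11 at 24 h and 0.09 to 0.11 at 48 h. Each Dox+ array correlated best with the Dox− array of its own number at 12 h and 48 h, and neither did at 24 h. The labels name no pairs, and the replicates were not treated as pairs. The alternatives tried were Student's t-test, KIF2A counted as mitotic, array weights, quantile normalization, other probe sets, the replicate block, a robust eBayes with trend, the omission of dim genes or of _x_at probe sets, a single fit of all arrays, and each array left out. Promoter windows are RefSeq's, on GRCh38.p14. A planned search of a protein motif was not run, and genes without a named probe set were not analysed here. Python 3.11.15 ran the promoter search with pandas 2.3.3, and matplotlib 3.10.9 drew the plots.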

Additional observations from a re-analysis of the deposited data

Results flagged for a closer look

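In 3 kinesins the effect of doxycycline differed between 48 h and 12 h by a test of the difference itself, in the limma fit of all 14 arrays with and without array weights. The effect at 48 h minus that at 12 h was −1.07 for KIF15, −1.04 for KIF21B and 1.48 for KIF5C on the log2 scale. For KIF21B the effect at 48 h also differed from that at 24 h, by −0.68. KIF21B was higher on both Dox+ arrays than on the Dox− arrays at 12 h and lower on all 3 Dox+ arrays at 48 h. For KIF5C the adjusted p with weights was 0.0499, close to the threshold. No explanation of these differences was tested.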

How the results depend on the processing

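At 48 h 12 mitotic kinesins were called lower whichever array was left out, and 20 to 22 kinesins were called in all; the mitotic median lay between −0.71 and −0.51 and that of transport kinesins between 0.0077 and 0.11. Student's t-test, which the methods name without tying it to the arrays, called 14 kinesins at 48 h, 7 of them mitotic and lower, and 0 at 24 h, 0 of them mitotic, where limma called 11 and 18 had an unadjusted p under 0.05. At 24 h leaving out 1 array gave 3 to 7 kinesins called, 2 to 5 of them mitotic and lower, with medians from −0.68 to −0.58 for mitotic and from −0.055 to 0.074 for transport kinesins. Quantile normalization gave 7 kinesins called and a mitotic median of −0.59 at 24 h. At 12 h 3 kinesins were called with all 14 arrays in 1 fit. The transport median at 12 h was 0.11 with the probe set of largest interquartile range, 0.17 with quantile normalization and 0.18 to 0.35 with 1 array left out. Array weights lowered the kinesins that differed between 48 h and 12 h to 3 in effect (6 without weights), to 5 within Dox+ cells (9 without) and to 5 within Dox− cells (10 without). The replicate block gave 0 kinesins called at 12 h, 11 at 24 h and 21 at 48 h, and with crossed numbers at 24 h, an alternative added after the data were seen, 13; it is not taken as a pairing. Under the block 10 of the 11 kinesins called at 24 h and 21 of the 22 called at 48 h kept their call. No result changed direction past the test. The share of all genes called was not counted for Student's t-test, quantile normalization, the single fit, the block or an array left out. The cause of these shifts was not tested, and leaving out an array leaves fewer samples.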
